A study of Mus musculus with 4 samples.

Results

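The genes of the elastic fibre and its microfibrils were compared between cultured skin fibroblasts of Adam9 knockout and wild-type newborn mice. The 10 genes considered were elastin (Eln), the fibrillins Fbn1 and Fbn2, the fibulins Fbln1, Fbln2, Fbln5 and Efemp2, and the microfibril-associated proteins Mfap2, Mfap4 and Mfap5. Probe sets were taken where the platform annotation named exactly 1 of these genes, which gave 16 of the 45101 probe sets on the array and covered 8 of the 10 genes. No probe set used here named Fbn1 or Efemp2, and these genes were not analysed here. The knockout cells carried the genotype adam9 -/- (n = 2 isolations) and the wild-type cells adam9 +/+ (n = 2 isolations). All were dermal fibroblasts isolated at postnatal day 1 and kept in culture for 48 h with no treatment, and each isolation was measured on 1 array. The labels name no strain, sex or litter and do not give the number of animals behind an isolation. The p-values therefore weigh a difference only against the spread between isolations. That spread is drawn in part from the other genes or probe sets in the fit. The design addressed which genes differ constitutively when ADAM9, a membrane-anchored metalloprotease, is missing.

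Elastic fibres give skin, lung and arteries their recoil. Fibroblasts and smooth muscle cells secrete tropoelastin, the product of Eln, onto a scaffold of microfibrils built from fibrillins, and lysyl oxidases then cross-link it into an insoluble core. Fibulins sit between the core and the scaffold, and microfibril-associated proteins decorate the fibrillin strands. Microfibrils also hold latent TGF-beta complexes in the matrix. In the dermis most of these components are made by fibroblasts, and most are made during late fetal and early postnatal growth.

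None of the 8 measured genes passed the test between genotypes, and 5 of them had higher values in both knockout arrays than in both wild-type arrays. These 5 were Mfap4, Eln, Fbln1, Fbn2 and Mfap2, with mean differences of 0.85 to 2.29 log2 units. Fbln2 had lower values in both knockout arrays, with a difference of -0.39. The genotypes overlapped for Fbln5 and Mfap5. A gene was tested if its brightest probe set averaged above the 40th percentile of all probe sets, which all 8 genes and all 16 of their probe sets did. Over all 13271 genes tested, 23% stood higher in the knockout without overlap and 22% stood lower without overlap. The limma test called 0 of the 8 genes at an adjusted p under 0.05, against 0.0678% of all genes tested (9 genes). At an unadjusted p under 0.05 it marked 3 of the 8, namely Eln and Mfap4 on the higher and Fbln2 on the lower side, against 11.4% of all genes tested. The median difference over the 8 genes was 0.98, against 0.0027 over all genes tested. That median was 0.31 when wild-type isolation 2 was left out, and was 1.61 when wild-type isolation 1 was.

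The 4 arrays differed in other ways that move with the genotype or with single arrays. Adam9 had deposited log2 values of 8.33 and 8.55 on the knockout arrays, against 11.58 and 11.70 on the wild-type arrays (log2 difference -3.20, limma adjusted p = 0.0242), and the labels do not say whether its probe set lies inside the deletion. Fibroblast markers were high on all arrays, with medians over 10 genes of 13.1 and 12.9 on the knockout arrays, against 12.9 and 12.3 on the wild-type arrays. Of 15 macrophage markers, 14 were highest in wild-type isolation 1. Their median was 4.45 and 4.44 on the knockout arrays, against 8.44 in wild-type isolation 1 and 4.65 in wild-type isolation 2. All 15 measured proliferation markers stood higher in both knockout arrays, with list medians of 8.51 and 9.32 on the knockout arrays, against 6.89 and 6.85 on the wild-type arrays. Xist and 3 Y-linked genes separated the genotypes as well. Xist stood at 10.38 and 10.40 on the knockout arrays, against 4.29 and 4.32 on the wild-type arrays. Eif2s3y stood at 2.75 and 2.67, against 9.19 and 9.31, and Kdm5d and Uty went the same way. This is the pattern of female cells on both knockout arrays and of male cells on both wild-type arrays. Genotype, sex-linked expression and proliferation markers cannot be told apart between these arrays.

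**Figure D1:**
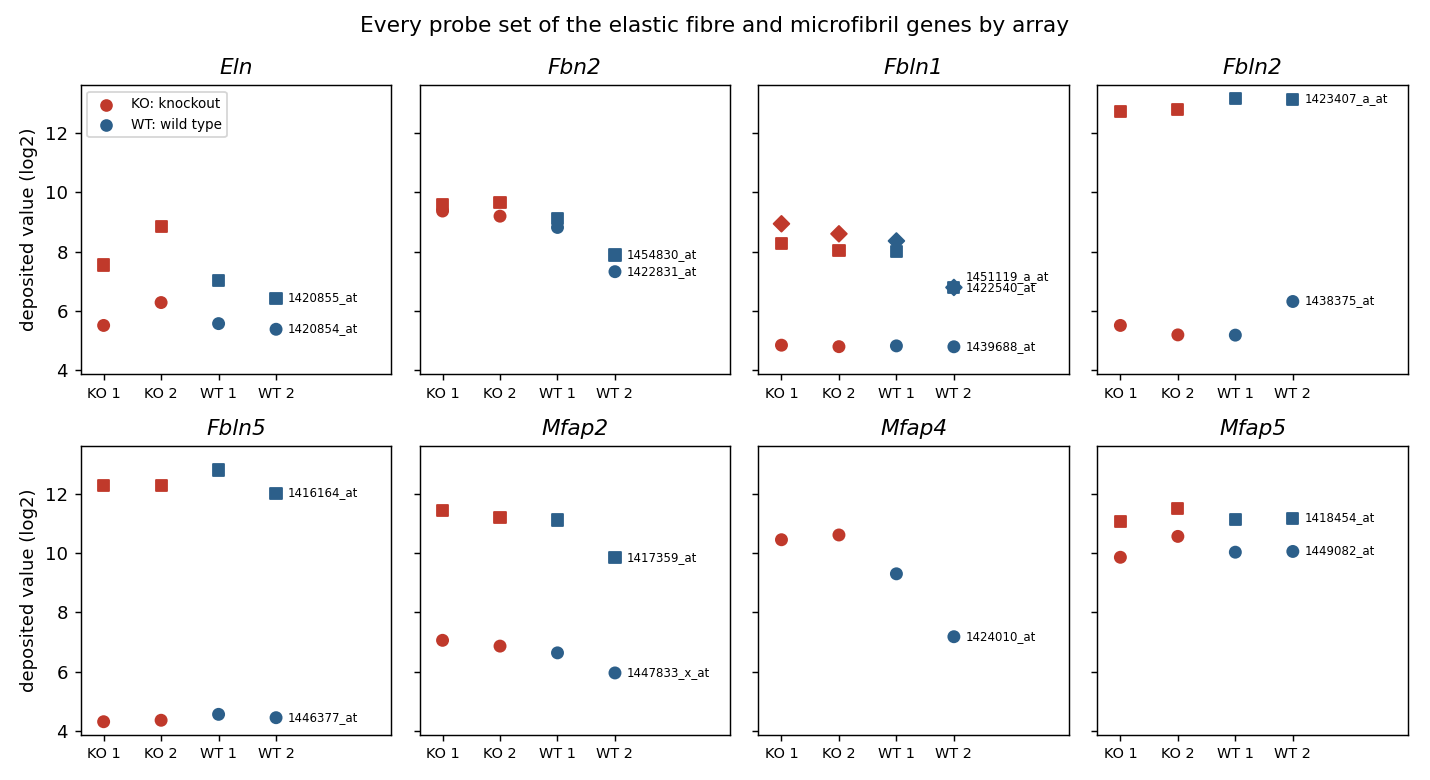
Deposited log2 value (y axis) of each of the 16 probe sets in knockout isolations 1 and 2 (red) and wild-type isolations 1 and 2 (blue). Marker shapes separate the probe sets of a gene, and each point is 1 array. Mfap4 stands at 10.46 and 10.62 on the knockout arrays, against 9.30 and 7.18 on the wild-type arrays, and wild-type isolation 2 is also the lowest array for both Fbn2 probe sets.

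Promoter windows are shown for Mfap2 and Fbln1, which had higher values in the knockout without overlap, and for Fbln2, which had lower ones. The windows come from RefSeq (GRCm38.p6) and run from 250 bases before to 50 bases after an annotated start. Of the 10 genes, 6 matched a window, and where a gene had several windows the first listed is shown. Capitals mark a match on either strand to the TATA box TATAAA, the GC box GGGCGG, the AP-1 site TGACTCA, the TEAD site GGAATG or the E-box CACGTG. No marked matches overlap.
Mfap2, chr4:141010431-141010730, + strand: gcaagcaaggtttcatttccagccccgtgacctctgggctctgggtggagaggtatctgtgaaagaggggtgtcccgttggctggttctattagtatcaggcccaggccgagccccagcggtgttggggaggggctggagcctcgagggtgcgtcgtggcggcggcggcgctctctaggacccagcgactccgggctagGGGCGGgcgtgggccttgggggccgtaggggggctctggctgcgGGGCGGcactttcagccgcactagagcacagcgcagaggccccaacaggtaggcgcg
Fbln1, chr15:85205699-85205998, + strand: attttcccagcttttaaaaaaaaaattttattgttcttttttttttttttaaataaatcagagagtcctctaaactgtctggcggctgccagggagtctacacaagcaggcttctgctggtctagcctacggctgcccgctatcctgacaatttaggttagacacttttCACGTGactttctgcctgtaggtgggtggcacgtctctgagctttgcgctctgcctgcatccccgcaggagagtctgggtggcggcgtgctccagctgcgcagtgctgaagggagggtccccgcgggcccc
Fbln2, chr6:91212514-91212813, + strand: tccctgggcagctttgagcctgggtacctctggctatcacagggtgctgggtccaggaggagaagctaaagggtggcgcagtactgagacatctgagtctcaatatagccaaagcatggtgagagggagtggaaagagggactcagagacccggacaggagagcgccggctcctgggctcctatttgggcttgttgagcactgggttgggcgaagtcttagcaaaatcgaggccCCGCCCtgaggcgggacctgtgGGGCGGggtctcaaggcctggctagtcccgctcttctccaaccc
The Mfap2 and Fbln2 windows each held 2 GC boxes, a motif present in 35.7% of all 32851 windows of this length. The Fbln1 window held 1 E-box, found in 7.15% of all windows, and no GC box. None of the 3 windows held a TATA box (13.6% of all windows), an AP-1 site (5.2%) or a TEAD site (14.7%), which says only that these letters are not in the windows. Mfap2 and Fbln1 each have a second window with other matches. That of Mfap2 (chr4:141010174-141010473) held 1 TEAD site and no GC box, and that of Fbln1 (chr15:85205758-85206057) held 2 GC boxes beside the E-box.

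Elastin, the core protein of the fibre, was measured by 2 probe sets. All values below are deposited log2 values, and all differences are knockout minus wild type on that scale. The brighter, 1420855_at, had values of 7.55 and 8.86 on the knockout arrays, against 7.03 and 6.42 on the wild-type arrays. Both knockout arrays stood above both wild-type arrays, and knockout isolation 2 stood well above the other. The means were 8.21 ± 0.926 in the knockout cells, against 6.73 ± 0.434 in the wild-type cells (SD, n = 2 each). The log2 difference was 1.48, or 2.79-fold (SE 0.503, 95% interval 0.13 to 2.83, limma adjusted p = 0.417), and it was 0.83 without knockout isolation 2 but 2.14 without knockout isolation 1. It was 0.95 when the 2 probe sets were averaged. The dimmer probe set, 1420854_at, had 5.51 and 6.28 on the knockout arrays, against 5.57 and 5.38 on the wild-type arrays. Here the genotypes overlapped, because knockout isolation 1 lay between the wild-type arrays, and the difference of 0.42 was 0.034 without knockout isolation 2. The 2 knockout isolations differed by more than 1 log2 unit in Eln alone of the 8 genes, where 3.96% of all genes tested did so.

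Fibrillin-2, a microfibril subunit made mainly in developing tissue, gave the same picture with both of its probe sets. With 1454830_at, Fbn2 had values of 9.60 and 9.66 on the knockout arrays, against 9.13 and 7.89 on the wild-type arrays. With 1422831_at it had 9.37 and 9.20 on the knockout arrays, against 8.82 and 7.33 on the wild-type arrays. The knockout arrays lay close together, wild-type isolation 1 lay just below them and wild-type isolation 2 lay far below. Fbn2 averaged 9.63 ± 0.0441 in the knockout cells, against 8.51 ± 0.880 in the wild-type cells with 1454830_at (SD, n = 2 each). The log2 difference was 1.12 (SE 0.438, 95% interval -0.05 to 2.30, limma adjusted p = 0.451), which was 0.50 without wild-type isolation 2 but 1.74 without wild-type isolation 1. The other Fbn2 probe set differed by 1.21.

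Mfap2 and Mfap5 encode the small glycoproteins MAGP-1 and MAGP-2, which bind fibrillins along the microfibril. Mfap2 had values of 11.45 and 11.21 on the knockout arrays, against 11.12 and 9.84 on the wild-type arrays with 1417359_at. With 1447833_x_at, whose probes can also match other transcripts, it had 7.06 and 6.86 on the knockout arrays, against 6.64 and 5.96 on the wild-type arrays. In both probe sets wild-type isolation 1 came within 0.3 log2 units of the nearer knockout array and wild-type isolation 2 was the lowest. The log2 difference of Mfap2 was 0.85 (SE 0.457, 95% interval -0.38 to 2.07, limma adjusted p = 0.543), and it was 0.20 without wild-type isolation 2 but 1.49 without wild-type isolation 1. Mfap5 had 11.07 and 11.52 on the knockout arrays, against 11.13 and 11.18 on the wild-type arrays with 1418454_at. Its second probe set, 1449082_at, had 9.86 and 10.57 on the knockout arrays, against 10.03 and 10.06 on the wild-type arrays. Both Mfap5 probe sets had the wild-type arrays between the knockout arrays, so the genotypes overlapped. The log2 difference of Mfap5 was 0.14 (SE 0.194, 95% interval -0.38 to 0.66, limma adjusted p = 0.810) and turned to -0.085 without knockout isolation 2.

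Mfap4, a fibrinogen-related glycoprotein that binds elastin and fibrillin, had the largest difference of the 8 genes. Its 1 probe set, 1424010_at, had values of 10.46 and 10.62 on the knockout arrays, against 9.30 and 7.18 on the wild-type arrays. All 4 values were in genotype order, but the wild-type arrays lay farther from each other than wild-type isolation 1 lay from the knockout arrays. The means were 10.54 ± 0.113 in the knockout cells, against 8.24 ± 1.5 in the wild-type cells (SD, n = 2 each). The log2 difference was 2.29, or 4.90-fold (SE 0.729, 95% interval 0.33 to 4.25, limma adjusted p = 0.394). It was 1.23 without wild-type isolation 2 but 3.35 without wild-type isolation 1. It was 2.37 without knockout isolation 1 but 2.21 without knockout isolation 2.

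**Figure D2:**
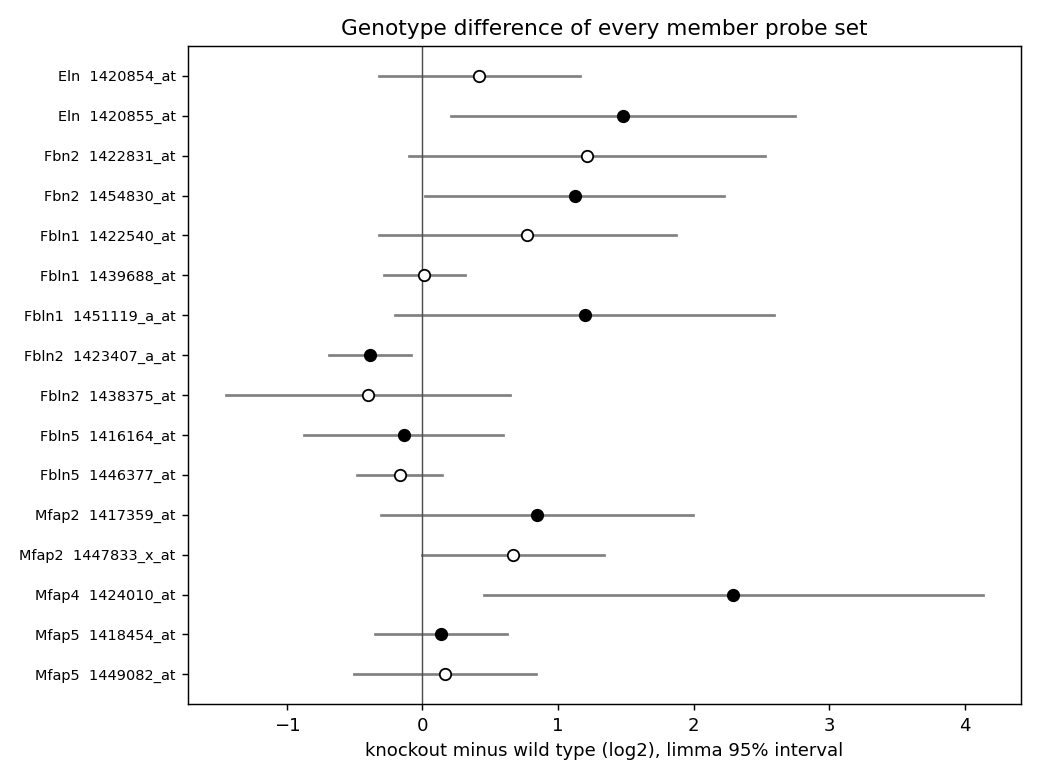
Knockout minus wild type on the log2 scale (x axis) for each of the 16 probe sets, with the limma 95% interval of a fit over all 45037 non-control probe sets as a line. Filled points are the probe set that stands for its gene in the gene test. Mfap4 lies farthest to the right at 2.29, and 12 of the 16 probe sets lie above 0.

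The measured fibulins had differences of both signs. Fibulin-1, which binds elastin and basement membrane proteins, had values of 8.94 and 8.60 on the knockout arrays, against 8.36 and 6.79 on the wild-type arrays with 1451119_a_at. Its probe set 1422540_at had 8.29 and 8.04 on the knockout arrays, against 7.99 and 6.79 on the wild-type arrays. Both had wild-type isolation 2 far below the other 3 arrays, which lay within 0.6 log2 units of each other. The remaining Fbln1 probe set, 1439688_at, ran from 4.79 to 4.84 over all 4 arrays, close to the array medians, and differed by 0.014. The log2 difference of Fbln1 was 1.20 (SE 0.556, 95% interval -0.30 to 2.69, limma adjusted p = 0.498). It was 0.41 without wild-type isolation 2 but 1.98 without wild-type isolation 1, and it was 0.66 when its probe sets were averaged.

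Fibulin-2, which links fibrillin-rich microfibrils to other matrix proteins, was the 1 measured gene with lower values in both knockout arrays. With 1423407_a_at, Fbln2 had values of 12.75 and 12.82 on the knockout arrays, against 13.19 and 13.15 on the wild-type arrays. The arrays of each genotype lay within 0.07 log2 units of each other. The means were 12.78 ± 0.0477 in the knockout cells, against 13.17 ± 0.0281 in the wild-type cells (SD, n = 2 each). The log2 difference was -0.39, a 1.31-fold lower value (SE 0.123, 95% interval -0.72 to -0.056, limma adjusted p = 0.396), and it ran from -0.42 to -0.35 with any 1 array left out. The second probe set, 1438375_at, had 5.51 and 5.19 on the knockout arrays, against 5.18 and 6.32 on the wild-type arrays. There the genotypes overlapped, and the difference of -0.40 turned to 0.17 without wild-type isolation 2.

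Fibulin-5, which binds elastin and cell-surface integrins and is needed for elastic fibre assembly in mice, had values of 12.28 and 12.27 on the knockout arrays, against 12.81 and 12.02 on the wild-type arrays with 1416164_at. The knockout arrays lay together between the wild-type arrays. The log2 difference was -0.14 (SE 0.292, 95% interval -0.92 to 0.64, limma adjusted p = 0.890), and it turned to 0.25 without wild-type isolation 1. The second Fbln5 probe set, 1446377_at, lay below the array medians, with 4.31 and 4.36 on the knockout arrays, against 4.56 and 4.45 on the wild-type arrays. Its genotypes did not overlap and it differed by -0.17.

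With all 4 arrays, the probe sets of 1 gene gave the same direction in all 7 genes that had more than 1. With 1 array left out, the direction could turn for Fbln1 1439688_at, Fbln2 1438375_at, Fbln5 1416164_at and both Mfap5 probe sets. Of the 16 probe sets, 12 had a positive difference, against 49.2% of all 45037 probe sets, and 8 stood higher in the knockout without overlap, against 19.5%. In a fit over all probe sets, limma called 0 of the 16 at an adjusted p under 0.05 (smallest adjusted p = 0.476), against 0.0311% of all probe sets. At an unadjusted p under 0.05 it marked 4 of the 16, against 9% of all probe sets. Probe sets of a gene share its transcripts and arrays and are not replicates.

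For 5 of the 8 genes (Mfap4, Fbln1, Mfap2, Fbn2 and Fbln5) the wild-type isolations lay farther from each other than the knockout isolations did, against 42.3% of all genes tested. Wild-type isolation 2 was the lowest of the 4 arrays for 6 of the 8 genes, against 26% of all genes tested. It lay more than 1 log2 unit below wild-type isolation 1 for Mfap4, Fbln1, Mfap2 and Fbn2, or 4 of the 8 genes, where 2.22% of all genes tested did so. The median of wild-type isolation 2 minus isolation 1 was -1.02 over the 8 genes and -0.0013 over all genes tested. In the knockout, isolation 2 minus isolation 1 had a median of 0.065.

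**Figure D3:**
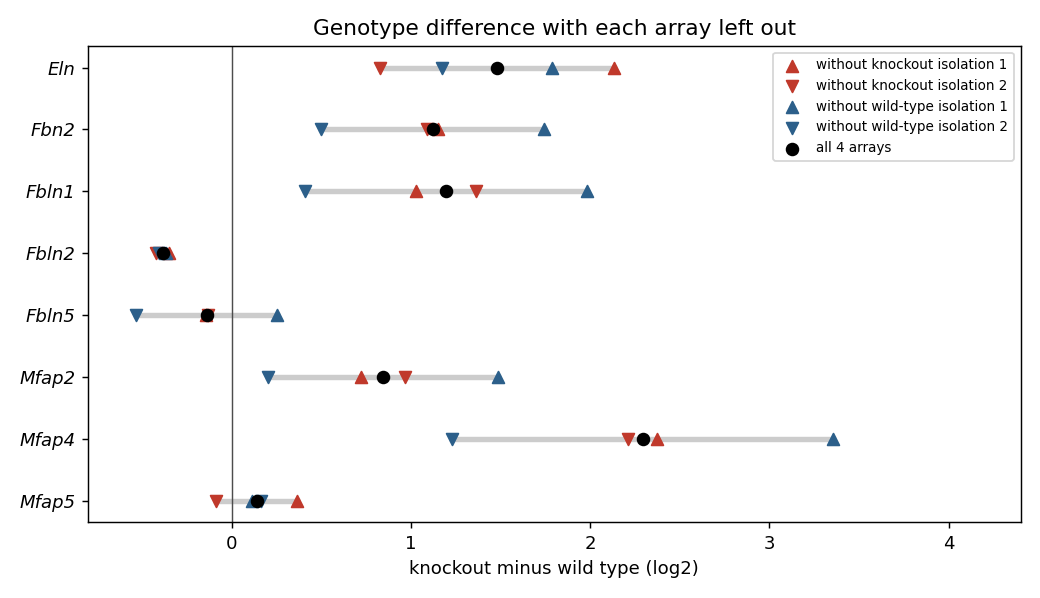
Knockout minus wild type on the log2 scale (x axis) for the probe set that stands for each of the 8 genes, with all 4 arrays (black) and with each array left out (red, a knockout array; blue, a wild-type array). Leaving out wild-type isolation 2 gives the smallest difference for Fbn2, Fbln1, Mfap2 and Mfap4, and Fbln5 and Mfap5 lie on both sides of 0.

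Markers of the cells in the cultures were set beside this spread. Of the 10 fibroblast markers, 7 were lowest in wild-type isolation 2, and their summed log2 values were 130.7 and 129.7 on the knockout arrays, against 129.6 and 123.5 on the wild-type arrays. Lum, a keratan sulphate proteoglycan of collagen fibrils, had 12.81 and 12.78 on the knockout arrays, against 12.38 and 10.13 on the wild-type arrays. Pdgfra, the PDGF receptor of dermal fibroblasts, had 12.30 and 12.31 on the knockout arrays, against 11.93 and 10.35 on the wild-type arrays. These are the largest differences among the fibroblast markers, and both genes had the same low array as Mfap4, Fbln1, Mfap2 and Fbn2. The other 3 markers were not lowest there. Of these, Vim and S100a4 were highest in wild-type isolation 2, at 13.81 and 13.74, and Thy1 was lowest in knockout isolation 1, at 12.26. The median difference over the 10 markers was 0.099. The 13 smooth muscle and pericyte markers summed to 108.6 and 100.9 on the knockout arrays, against 109.1 and 110.4 on the wild-type arrays. Among them Myh11, the smooth muscle myosin heavy chain, had 6.55 and 5.48 on the knockout arrays, against 8.71 and 9.57 on the wild-type arrays, with its highest value in wild-type isolation 2. The list had differences of both signs, 11 negative and 2 positive. The negative ones included Rgs5 (-0.58), Cspg4 (-0.51) and Mcam (-0.91), which are also pericyte markers. The positive ones were the pericyte channel genes Kcnj8, with 8.38 and 5.97 on the knockout arrays, against 5.86 and 4.30 on the wild-type arrays, and Abcc9, with 7.49 and 6.48 on the knockout arrays, against 5.49 and 3.45 on the wild-type arrays. Kcnj8 and Abcc9 were the 2 genes of this list that were lowest in wild-type isolation 2, and Myh11 was 1 of 8 that were highest there. None of the 3 passed limma's test (adjusted p = 0.189 for Myh11, 0.499 for Kcnj8 and 0.390 for Abcc9).

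The 15 macrophage markers summed to 69.3 and 67.8 on the knockout arrays, against 121.5 and 74.0 on the wild-type arrays, so wild-type isolation 2 was close to the knockout arrays and wild-type isolation 1 was not. Of the keratinocyte markers, 9 of 10 were measured, with sums of 36.6 and 35.6 on the knockout arrays, against 41.0 and 42.9 on the wild-type arrays. Dsp and Perp, which differed by -2.49 and -3.84, carried this gap. The sums of the 7 others were 28.2 and 29.0 on the knockout arrays, against 28.0 and 28.3 on the wild-type arrays, and the median difference over the 9 was -0.046. The 8 endothelial markers ranged only from 32.0 to 32.8 in sum and the 8 cartilage markers from 33.6 to 34.3. The part of cell make-up, proliferation and sex in the differences of the elastic fibre genes was not tested. In cultures measured as a whole, fewer cells of a type and less RNA per cell cannot be told apart.

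**Figure D4:**
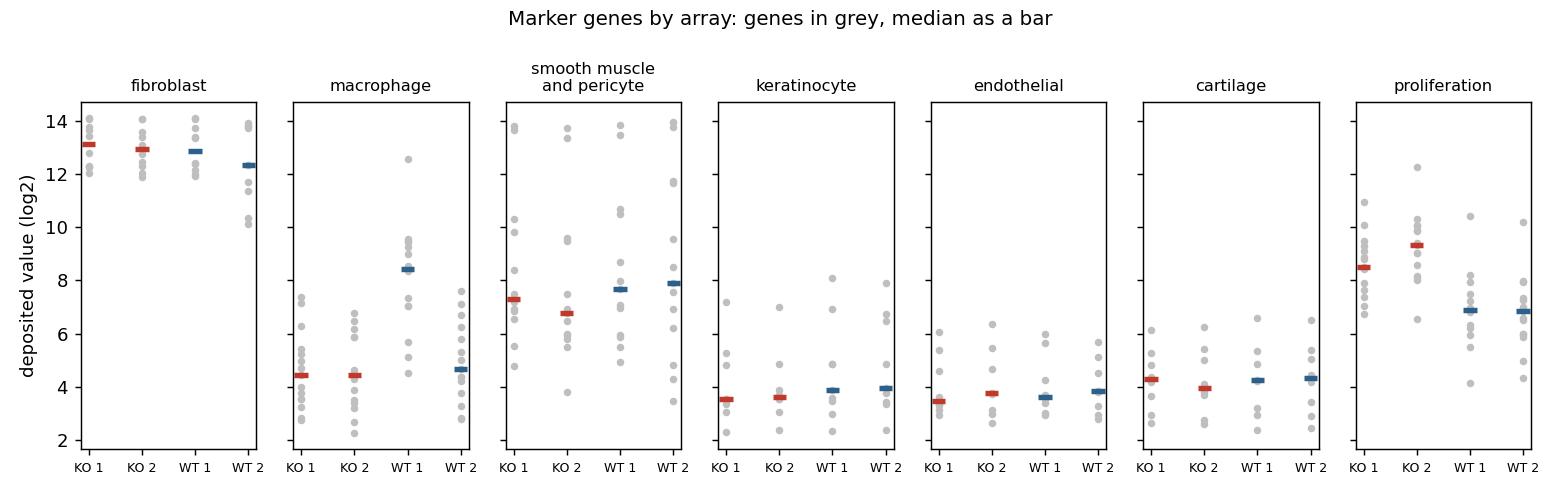
Deposited log2 values (y axis) of the marker genes of each list (grey points) and their median (bar) in knockout isolations 1 and 2 (red) and wild-type isolations 1 and 2 (blue). The macrophage median is 4.45 and 4.44 on the knockout arrays, with 8.44 in wild-type isolation 1 and 4.65 in wild-type isolation 2, and the fibroblast median is lowest in wild-type isolation 2 at 12.3.

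Other genes of elastic fibre assembly and turnover were taken from a list of 44, of which 36 were tested, 6 had no probe set naming them alone and 2, Mmp12 and Elane, were below the filter on dim probe sets. None of the 36 passed in either direction by limma (smallest adjusted p = 0.191), against 0.0678% of all genes tested, and 6 had an unadjusted p under 0.05, 1 higher and 5 lower, against 11.4% of all genes tested in either direction. The genotypes did not overlap for 5 genes that stood higher and 14 that stood lower in the knockout, against 23% and 22% of all genes tested. The median difference over the list was -0.048.

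Ltbp2, a latent TGF-beta binding protein that also associates with microfibrils, had the tightest difference on the higher side. It had values of 9.89 and 9.87 on the knockout arrays, against 9.06 and 9.14 on the wild-type arrays, with each genotype within 0.08 log2 units. The log2 difference was 0.78 (SE 0.123, limma adjusted p = 0.191), and it ran from 0.75 to 0.82 with any 1 array left out. The 3 other latent binding proteins, Ltbp1, Ltbp3 and Ltbp4, differed by 0.016, -0.059 and 0.11. The other genes with the largest positive differences were Hmcn1, an extracellular hemicentin (1.14; 0.41 without wild-type isolation 2 but 1.87 without wild-type isolation 1), the ADAMTS-like gene Adamtsl3 (0.73; 0.0039 without knockout isolation 2 but 1.46 without knockout isolation 1) and the proteoglycan Vcan (0.40; 0.12 when its probe sets were averaged, and 0.27 without wild-type isolation 2). Their limma adjusted p ran from 0.455 to 0.624.

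On the lower side, Adamts6, a secreted metalloprotease that acts on microfibrils, had values of 6.68 and 6.78 on the knockout arrays, against 7.67 and 8.05 on the wild-type arrays. The groups did not overlap, with a log2 difference of -1.13 (SE 0.178, limma adjusted p = 0.191; -1.32 to -0.95 with any 1 array left out). Fn1, the fibronectin on which microfibrils are laid down, had 12.90 and 13.16 on the knockout arrays, against 13.76 and 13.73 on the wild-type arrays, a difference of -0.71 (SE 0.150, limma adjusted p = 0.283; -1.27 when its probe sets were averaged). Mfap3l differed by -1.83 (limma adjusted p = 0.328; -1.21 without wild-type isolation 2, and -1.49 when its probe sets were averaged). Whether Mfap3l has a part in elastic fibres was not tested. Ctss, an elastin-degrading lysosomal protease of macrophages, had 3.88 and 4.23 on the knockout arrays, against 10.07 and 4.58 on the wild-type arrays. Its difference of -3.27 was -0.53 without wild-type isolation 1, the array with high macrophage markers.

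The 4 tested cross-linking enzymes had differences from -0.31 to 0.13, and Loxl2 had no probe set naming it alone. Lox, the lysyl oxidase of elastin and collagen, had values of 13.44 and 13.44 on the knockout arrays, against 13.45 and 13.53 on the wild-type arrays, a difference of -0.047 (95% interval -0.38 to 0.28). Loxl1, the lysyl oxidase most tied to elastic fibres in mice, differed by 0.13. Loxl3 differed by -0.31 (95% interval -0.84 to 0.22) and Loxl4 by -0.20 (95% interval -1.19 to 0.78). The limma adjusted p ran from 0.587 to 0.917 over the 4 enzymes. The 3 genes of the elastin receptor complex, Glb1, Neu1 and Ctsa, differed by -0.24, -0.40 and -0.46, and none passed. All 3 were highest in wild-type isolation 1, and the genotypes overlapped for Neu1. Of 7 tested elastin-degrading proteases, 6 had negative differences, against 49.5% of all genes tested. Besides Ctss these were Mmp14 (-0.31), Ctsk (-0.31), Ctsl (-0.37), Mmp9 (-0.049) and Mmp7 (-0.024), the last pair with values of at most 4.94 on every array. Mmp14 had 11.51 and 11.51 on the knockout arrays, against 12.04 and 11.60 on the wild-type arrays. Ctsk had 11.24 and 11.41, against 11.92 and 11.35, so its genotypes overlapped. Like Ctss, both were highest in wild-type isolation 1. Ctsl had 13.14 and 13.00, against 13.41 and 13.49, and was highest in wild-type isolation 2. The gelatinase Mmp2 differed by 0.017 (95% interval -0.91 to 0.95). It had 11.88 and 11.87 on the knockout arrays, against 12.34 and 11.38 on the wild-type arrays, so it too was highest in wild-type isolation 1. Among the other fibulins and EMILINs, the fibulin Efemp1 had 11.61 and 11.31 on the knockout arrays, against 12.06 and 12.26 on the wild-type arrays, a difference of -0.70 (SE 0.172, limma adjusted p = 0.314). Lox, Loxl1, Loxl3, Loxl4, Efemp1, Ltbp1, Ltbp3, Ltbp4, Mmp2, Mmp7, Mmp9, Mmp14, Ctsk, Ctsl and the elastin receptor genes were named after their values were seen.

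**Figure D5:**
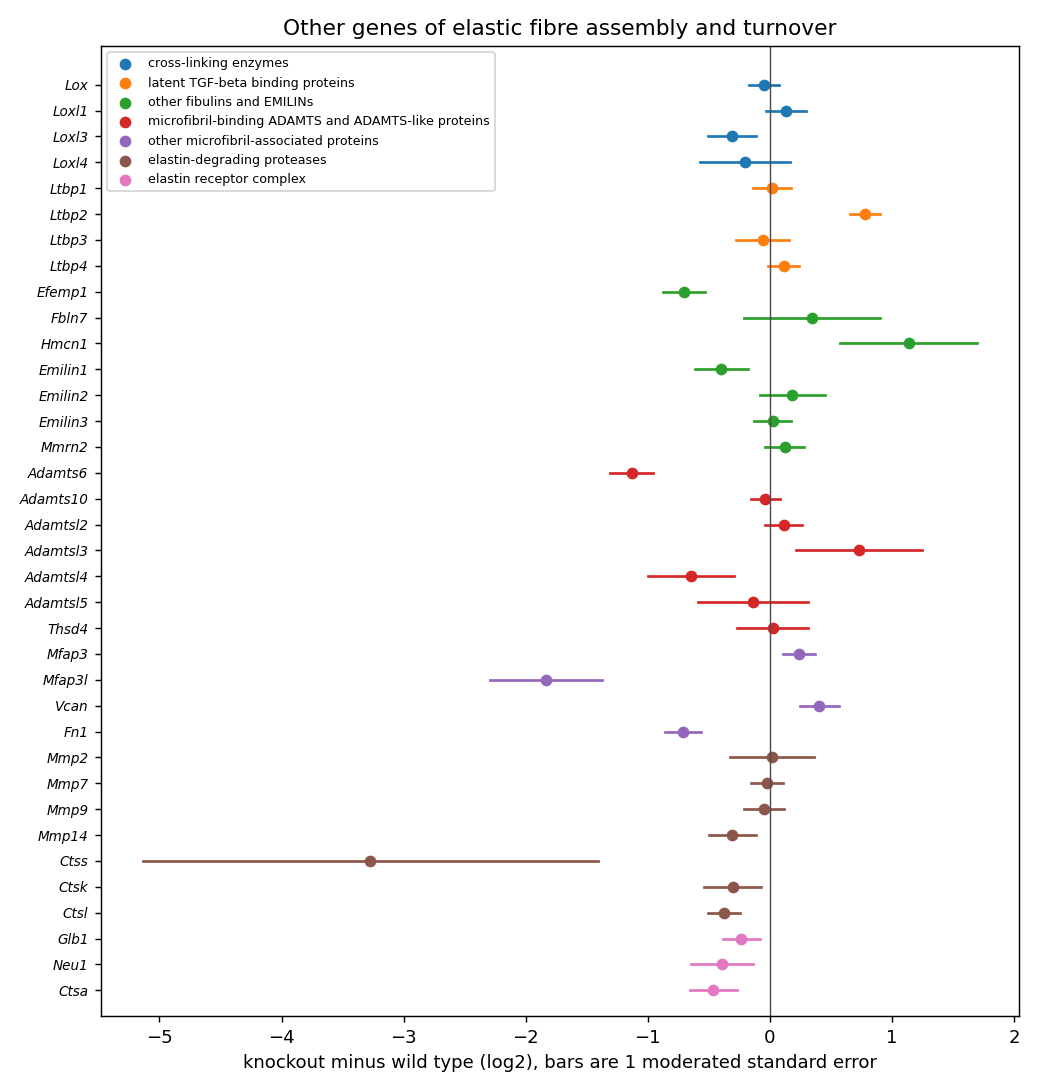
Knockout minus wild type on the log2 scale (x axis) for the 36 tested genes of elastic fibre assembly and turnover, coloured by role, with bars of 1 moderated standard error. Ltbp2 at 0.78 and Adamts6 at -1.13 have short bars, and Ctss at -3.27 has the longest.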

How the data were processed

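Arrays of 4 fibroblast cultures were analysed. The deposited table holds values that the authors had summarised per probe set on a scale taken here as log2, with Affymetrix Expression Console per the submitters' processing notes. Neither version nor algorithm is given in the sources used here. The log2 scale was inferred because values run from 1.70 to 14.4 with array medians of 4.83 to 4.87. No detection calls were used, so low values have no stated background.

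Probe sets naming 1 gene were kept, with names updated by Entrez identifier (RefSeq, GRCm38.p6). The probe set with the highest mean stood for its gene, and genes above the 40th percentile of 45037 non-control probe sets were tested (13271 of 18193). The genotype test used limma 3.58.1 in R 4.3.3 (no block, Benjamini-Hochberg over all genes tested, 2 residual and 2.38 prior degrees of freedom). A second fit took every non-control probe set. Precision is limited by the number of arrays.

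The members, the gene lists and the tests were chosen with earlier results of these data known. All members, Adam9 and the 4 genes of the wider list with the largest difference in each direction were to be named. The alternatives tried were a block for the isolation number, other filters, normalizations and variance models, other choices of probe set, and leaving out each array.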

Additional observations from a re-analysis of the deposited data

How the results depend on the processing

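The count of genes past limma's test stayed at 0 of the 8 elastic fibre genes, 0 of the pathway genes tested and 0 of the 16 probe sets under each alternative run. The median difference over the 8 genes was 0.71 with the mean over probe sets, 0.98 to 1.00 under the other settings with all arrays, and 0.31 to 1.61 with 1 array left out. The direction turned for Fbln5 without wild-type isolation 1 (0.25; -0.53 to 0.25 over the arrays left out) and for Mfap5 without knockout isolation 2 (-0.085; -0.085 to 0.37). Eln, Fbn2, Fbln1, Mfap2 and Mfap4 remained positive and Fbln2 negative in all 14 alternatives. The block, other filters, other variance models and leaving out _x_at and _s_at probe sets gave these genes the differences of the main fit. Those settings therefore did not test the direction. With the isolation number as a replicate block, 0 of the 8 genes, 0 of the pathway genes and 0 of the 16 probe sets passed, and 2 of all genes tested did, against 9 without it. Same-numbered isolations had deviations that correlated with r = 0.116 over all genes tested, across genes that are not independent, and the labels do not say that a number marks a shared litter or day. With any 1 array left out 0 of all genes tested passed. In those fits the lone array was taken to vary like the other genotype.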
